A study of Mus musculus with 9 samples.

Results

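The genes described here take fatty acids into the cell, bind and activate them, store and release them, and oxidise them in mitochondria and peroxisomes, together with the receptors and kinases that control fuel use. They were picked by gene symbol and function, with earlier results of these data known, and number 48 of the genes in a table of 23332 gene rows. Of the 48, 47 had a row of their own. Acsl3, a long-chain acyl-CoA synthetase, was listed only in a row shared with Utp14b, at 7.85 to 10.8 FPKM (read fragments per kilobase of a transcript, relative to all those mapped), which cannot be divided between them. Lipe had 3 rows, which makes 49 rows in all. A row was tested when its FPKM was at least 1 in at least 3 of the 9 samples. This held for 40 of the 49 rows, each of a different gene, and for 11339 rows of the whole table.

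FVB MOE cells, a single-clone secretory epithelial line from the mouse oviduct (the counterpart of the human fallopian tube), were kept without hormone for 48 h. All had been grown before that in medium with estradiol, insulin and epidermal growth factor. They then received 0.1% DMSO (the solvent control), 1 nM E2 (17-beta-estradiol, the natural estrogen) or 100 nM 4OHT (4-hydroxytamoxifen, the active metabolite of tamoxifen, an estrogen receptor ligand) for 24 h. Each condition had 3 samples, numbered replicate 1 to 3. The doses of E2 and 4OHT differ, each was given at a single dose and time, and the line is 1 clone, so no value speaks to other doses, times or oviduct cells. Whether the replicates were separate cultures is not stated, so p-values measure the spread between these samples only.

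Fatty acids reach a cell bound to albumin or are cut from circulating triglyceride by lipoprotein lipase, and small binding proteins carry them through the cytosol. Acyl-CoA synthetases activate them, and the activated chains are either stored in lipid droplets or passed through the carnitine shuttle into mitochondria. There the acyl-CoA dehydrogenases, hydratases, hydroxyacyl-CoA dehydrogenases and thiolases shorten them in repeated cycles, while pyruvate dehydrogenase kinases hold back the entry of glucose carbon. PPAR nuclear receptors, paired with RXR, bind fatty acids and switch on many of these genes. Estrogens are known to alter lipid metabolism in several tissues.

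The line's labels were checked against marker genes. Pax8, the lineage factor of oviduct secretory cells, lay at 105 to 150 FPKM over the 9 samples, and the keratins Krt7, Krt8 and Krt18 at 222 to 927. The epithelial adhesion genes Epcam and Cdh1 were nearly absent, at most 0.138 and 0.422 FPKM, and Ovgp1, the oviduct glycoprotein, was at 1.44 to 2.61. Foxj1, the factor of ciliated cells, was measured at 8.95 to 15.9. In the comparison of E2 with DMSO, tested as described below for the members, Krt7 rose by 1.45 in log2(FPKM + 1) (limma adjusted p = 0.0476, and 0.00313 with a replicate block). With the block Krt18 (0.52), Krt8 (0.44) and Pax8 (0.17) also rose and Foxj1 fell (-0.40, limma adjusted p = 0.0176). The other tested markers of secretory and ciliated cells did not pass, and some went the other way. Ovgp1 differed by -0.29 (limma adjusted p = 0.101, blocked), and the ciliated cell genes Rsph1, Ccdc39 and Cfap126 by 0.19 (0.0533), -0.15 and 0.03. The summed FPKM of the 7 markers of secretory epithelium was 1260 to 1391 in DMSO, 2154 to 2319 in E2 and 1341 to 1487 in 4OHT, and that of the 6 ciliated cell markers 18.8 to 22.1, 14.8 to 19.3 and 19.4 to 21.7. Keratins made up most of the secretory sum, with Krt7 at a mean of 310 in DMSO and 816 in E2. The 5 fibroblast markers summed to 1.91 to 6.84, 2.23 to 4.66 and 2.03 to 5.32, with Thy1 at 0, and the 5 markers of macrophages and leukocytes to 7.71 to 9.93, 7.11 to 9.7 and 6.37 to 8.68, with Ptprc at most 0.0271. The fibroblast marker Col1a1 (1.84 to 6.73 FPKM) and the leukocyte markers Csf1r (3.23 to 5.94) and Cd68 (3.01 to 4.01) passed the filter and made up most of these sums. The 6 adipocyte markers, of interest because several members are best known from fat cells, summed to 0.238 to 0.268 FPKM in DMSO, 0.0691 to 0.232 in E2 and 0.022 to 0.331 in 4OHT, and none passed the filter. The part of these lists in the results was not tested, and in bulk RNA fewer cells of a type cannot be told apart from less RNA per cell. The FPKM of a sample summed to 522517 to 588640, with 11037 to 11175 rows at 1 or more. The files hold FPKM without read counts, so the number of reads behind a value is unknown.

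**Figure D1:**
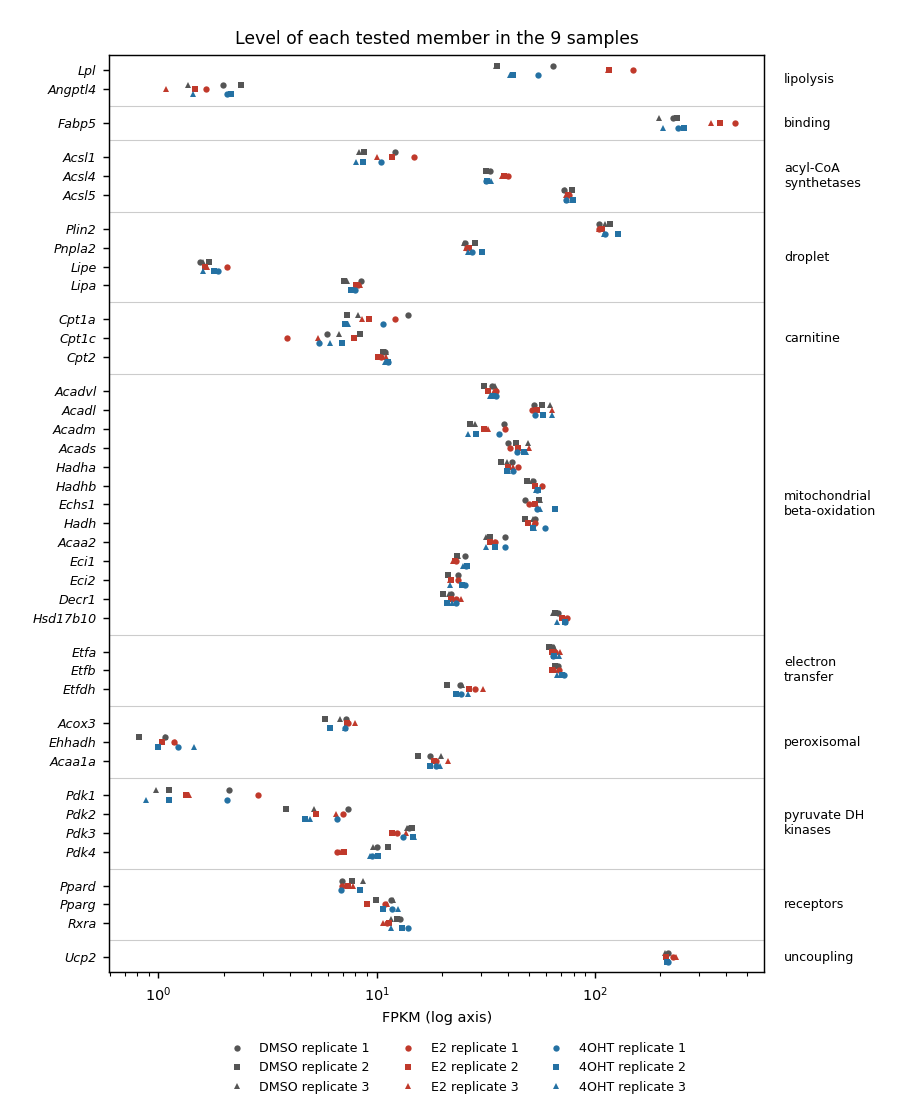
FPKM of the 40 tested members (log axis) in each of the 9 samples, grouped by role, with colour for the condition and the symbol for the replicate number. Fabp5 and Ucp2 lie highest and Ehhadh, Lipe, Pdk1 and Angptl4 lowest, the 2 samples in which Ucp2 is listed at 0 are not drawn, and the E2 points of Lpl and Fabp5 stand to the right and those of Pdk4 to the left of the other 6.

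FPKM is a value per length, so levels may be compared between genes. In DMSO, Fabp5 was the highest of all members without a listed zero, at 221 ± 21.5 FPKM (SD, n = 3), followed by Plin2 at 111 ± 6.41, Acsl5 at 74.7 ± 3.58, Etfb at 66.6 ± 0.908 and Hsd17b10 at 65.9 ± 1.51. The last 2 of these differed by less than the spread of Hsd17b10. The 13 mitochondrial beta-oxidation enzymes ran from 20.1 (Decr1) to 74.9 FPKM (Hsd17b10) over all samples, and the carnitine palmitoyltransferases stood lower, from 3.87 to 13.9. Several members best known from fat, muscle and liver were low or absent. The fatty acid translocase Cd36 was listed at 0 in 8 samples and at 0.008 in the other, Ppara was at most 0.068, Ucp3 at most 0.029 and the PPAR coactivator Ppargc1a at most 0.752.

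Promoter sequences of 3 members are shown to let the start sites of genes that differed in both comparisons with E2 be compared. Of the members, 40 genes had an entry, Lpl, Fabp5, Angptl4, Fabp4, Decr1, Acaa2 and Ppargc1b not being among them, in RefSeq's set of promoters (assembly GRCm38.p6, which has the coordinates of the mm10 build of the files), 47 promoters in all, each with 250 bases before and 50 from the start site on. The 3 genes passed the threshold in both comparisons with E2 in the blocked fit (with replicate numbers as blocks), have 1 promoter each and stand for different steps: Pdk4 (a kinase), Acsl4 (a synthetase) and Etfdh (electron transfer). All 3 lie on the minus strand, and the sequences run 5′ to 3′ in the direction of transcription. Capitals mark a CCAAT box (CCAAT), a GC box (GGGCGG), the nuclear receptor core motif (AGGTCA) or a TATA box (TATAAA) on either strand.
Pdk4, chr6:5496229-5496528: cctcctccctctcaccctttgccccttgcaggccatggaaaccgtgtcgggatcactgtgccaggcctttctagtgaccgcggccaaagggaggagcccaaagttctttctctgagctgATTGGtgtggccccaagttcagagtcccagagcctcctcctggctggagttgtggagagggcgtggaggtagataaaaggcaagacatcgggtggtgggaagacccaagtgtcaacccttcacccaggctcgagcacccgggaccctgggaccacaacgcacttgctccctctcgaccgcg
Acsl4, chrX:142390486-142390785: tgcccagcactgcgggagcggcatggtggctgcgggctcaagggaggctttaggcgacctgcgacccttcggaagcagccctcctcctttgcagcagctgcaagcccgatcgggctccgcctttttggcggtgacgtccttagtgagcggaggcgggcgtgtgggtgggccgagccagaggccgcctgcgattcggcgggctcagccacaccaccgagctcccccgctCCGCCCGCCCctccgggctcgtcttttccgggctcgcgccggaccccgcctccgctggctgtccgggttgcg
Etfdh, chr3:79628718-79629017: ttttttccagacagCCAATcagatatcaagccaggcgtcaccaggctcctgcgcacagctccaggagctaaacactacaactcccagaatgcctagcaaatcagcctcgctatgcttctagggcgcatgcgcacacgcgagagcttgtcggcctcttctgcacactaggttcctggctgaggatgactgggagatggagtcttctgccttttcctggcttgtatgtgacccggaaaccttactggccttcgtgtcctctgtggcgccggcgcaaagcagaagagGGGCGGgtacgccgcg

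Pdk4 held 1 CCAAT box, read on the opposite strand, that begins at position -131 from the start site. Acsl4 held 2 overlapping GC boxes at -22 and -18, and Etfdh a CCAAT box at -236 and a GC box at 34. Of the 47 member promoters, 32 (68.1%) held the GC box, against 35.7% of all 32851 promoters, and 21 (44.7%) the CCAAT box, against 37.4%. The TATA box stood in 2 (4.26%), against 13.6%. The core motif AGGTCA stood in 11 (23.4%), against 16.3%. The estrogen response element (GGTCA and TGACC with 3 bases of any kind between) stood in 0 of these 47, which leave out Lpl and Fabp5 (0.07% of all), the direct repeat bound by PPAR and RXR (AGGTCA, 1 base of any kind, AGGTCA, which holds the core motif) also in 0 (0.0396% of all), and the AP-1 site TGANTCA in 1 (2.13%, against 7.81%). Both strands were searched. The 32851 promoters were not limited to genes expressed in these cells, as most members are, so the 2 sets are not matched. These are counts of letters within 300 bases, and promoters of 1 gene may overlap. Letters not found here say nothing of sites elsewhere.

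The comparison of E2 with DMSO asks which genes respond to estrogen in these cells. Differences were tested with limma on log2(FPKM + 1) over all 11339 rows and all 9 samples, with Benjamini-Hochberg adjusted p under 0.05 in a comparison as the threshold. The fit was made without and with the replicate number as a block (the unblocked and the blocked fit), since samples of the same number deviated together. Without the block, 2 of the 40 tested members rose, Lpl and Fabp5, where 0.494% of all rows rose, and 1 fell, Pdk4, where 0.0176% of all rows fell. In the blocked fit, 7 rose (Lpl, Fabp5, Acsl1, Acsl4, Etfdh, Pdk1 and Hsd17b10), where 10.4% of all rows rose, and 2 fell (Pdk4 and Angptl4), where 4.63% of all rows fell. Another scaling changed the split over all rows, from 1177 higher and 525 lower to 914 and 1070 with upper-quartile normalization and 1016 and 1025 with equal FPKM totals. Of the 9 members, 8 and 9 passed in these blocked fits in the same direction, Hsd17b10 missing with upper-quartile normalization (limma adjusted p = 0.0544), and Plin2 and Pparg were added as lower in both. The median log2 change over the 40 members was 0.04, with 25 above 0 and 15 below, beside a median of 0.00 over all rows. With upper-quartile normalization the median over the members was 0.01.

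Lpl encodes lipoprotein lipase, the enzyme that releases fatty acids from circulating triglyceride (chr8:68880491-68907448, plus strand). Its FPKM was 64.5, 35.7 and 35.3 in DMSO, 149, 116 and 115 in E2, and 54.7, 42.0 and 40.7 in 4OHT, in the order of the replicate numbers. The lowest E2 sample was above the highest of the other 6, and replicate 1 was the highest sample of each condition. The share of all rows with E2 apart from the other 6 was not counted, here or for the members below. The means were 45.2 ± 16.8 in DMSO and 127 ± 19.6 in E2 (SD, n = 3), a ratio of 2.8. The difference in log2(FPKM + 1) was 1.51 (SE 0.24, limma adjusted p = 0.0487) without the block and 1.51 (SE 0.104, limma adjusted p = 0.00114) with it. Unblocked, the call of Lpl was lost under each of 6 other settings. The limma adjusted p was 0.0536 with a pseudocount of 0.1, 0.0542 without a variance trend, 0.0744 with upper-quartile normalization, 0.078 without a filter, 0.0926 with equal FPKM totals and 0.203 with only the 6 samples compared. Within replicate numbers 1, 2 and 3 the log2 ratio of FPKM was 1.21, 1.70 and 1.70.

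Angptl4, a secreted inhibitor of lipoprotein lipase, was weakly expressed. Its FPKM was 1.97, 2.39 and 1.37 in DMSO, 1.65, 1.48 and 1.09 in E2, and 2.07, 2.14 and 1.44 in 4OHT. E2 was below DMSO for each replicate number, though the 2 conditions overlapped. The difference was -0.27 (SE 0.0657, limma adjusted p = 0.045) in the blocked fit, and in the unblocked fit the adjusted p was 0.607, with a difference of -0.15 without DMSO replicate 2, -0.17 without E2 replicate 3 and -0.41 without DMSO replicate 3. Cd36 is described above. Gpihbp1, the endothelial protein that anchors lipoprotein lipase in capillaries and no member of the list, was listed at 0 in all 9 samples. Of the 5 endothelial markers, Kdr, a growth factor receptor gene, passed the blocked fit with a difference of 0.44 (limma adjusted p = 0.00508). The summed FPKM of these markers was 0.638 to 0.837 in DMSO, 1.18 to 1.42 in E2 and 0.722 to 0.87 in 4OHT, with the endothelial cadherin gene Cdh5 at most 0.1 and Gpihbp1 at 0. Their part in the result for Lpl was not tested.

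Fabp5 encodes the epidermal fatty acid binding protein, which carries fatty acids within the cell and to the nucleus (chr3:10012548-10016607, plus strand). Its FPKM was 228, 238 and 197 in DMSO, 438, 375 and 342 in E2, and 241, 257 and 205 in 4OHT. All 3 E2 samples were above the other 6. The mean rose from 221 ± 21.5 to 385 ± 48.5 (SD, n = 3), a ratio of 1.74, and the difference was 0.80 (SE 0.121, limma adjusted p = 0.0476) without the block and 0.80 (SE 0.0622, limma adjusted p = 0.00161) with it. Unblocked, the call of Fabp5 was lost without a filter (limma adjusted p = 0.0671), with upper-quartile normalization (0.0659), with only the 6 samples compared (0.132) and whichever sample was left out. Reads could be shared with a processed pseudogene of this gene, so the level is uncertain to that extent. The other binding proteins were not tested. Fabp3, the heart form, was at 0.635 to 0.969 over the 9 samples. Fabp4, the adipocyte form and a neighbour of Fabp5 on chromosome 3, was listed at 0.035, 0.060 and 0 in DMSO, 0.458, 0.374 and 0.158 in E2, and 0.076, 0.042 and 0.037 in 4OHT. The E2 values of Fabp4 were the highest 3 of the 9, at levels where the number of reads is unknown, and the gene was singled out after its values were seen.

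**Figure D2:**
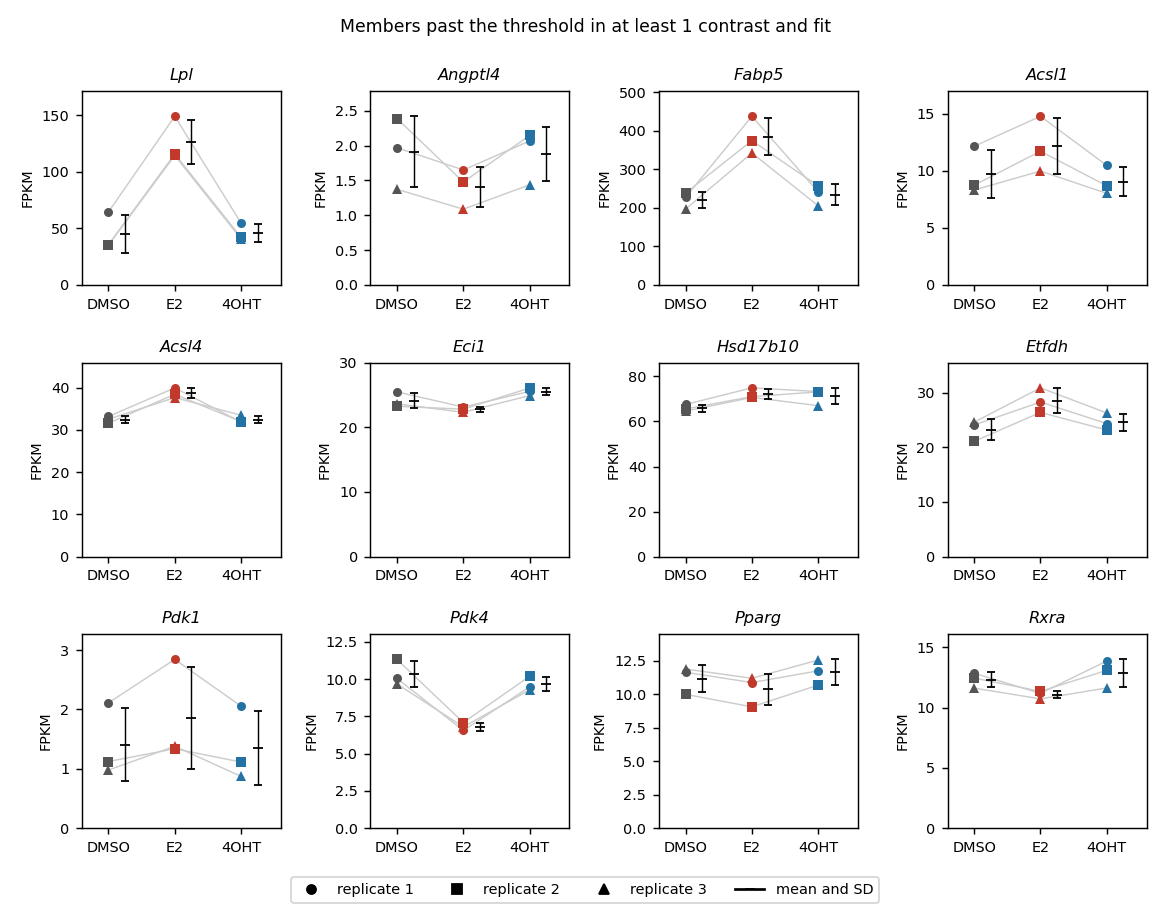
FPKM of the 12 members past the threshold in at least 1 comparison and fit (axes from 0), by condition, with grey lines joining samples of the same replicate number, and mean ± SD (n = 3) beside the points. Lpl, Fabp5, Acsl4 and Pdk4 shift by more than the spread between samples. For Pdk1, Acsl1, Angptl4 and Pparg the means of the replicate numbers lie farther apart than those of the conditions.

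The long-chain acyl-CoA synthetases attach coenzyme A to fatty acids, the step that traps and activates them. Acsl1, the form tied to oxidation and triglyceride synthesis, was at 12.2, 8.75 and 8.33 FPKM in DMSO, 14.8, 11.7 and 9.99 in E2, and 10.5, 8.69 and 8.03 in 4OHT. The conditions overlapped, but E2 was above DMSO for each replicate number. The difference was 0.29 (SE 0.0497, limma adjusted p = 0.0148) in the blocked fit and did not pass in the unblocked fit (SE 0.175, limma adjusted p = 0.6), where it was 0.16 without E2 replicate 1 and 0.45 without DMSO replicate 1. Acsl4, which prefers arachidonic acid, was at 33.1, 31.6 and 32.5 in DMSO, 39.9, 38.4 and 37.6 in E2, and 31.8, 31.9 and 33.4 in 4OHT. All 3 E2 samples were above the other 6, with a difference of 0.25 (SE 0.0357, limma adjusted p = 0.00961 blocked, 0.075 unblocked). Acsl5, a mitochondrial and endoplasmic reticulum form and the most abundant of the group, was at 72.2, 78.8 and 73.0 in DMSO, 75.8, 75.3 and 73.5 in E2, and 73.9, 79.7 and 75.0 in 4OHT. Its difference was 0.00, with a 95% interval of -0.08 to 0.09 in the blocked fit.

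None of the 4 tested members of lipid droplets and intracellular lipolysis passed in either fit. Plin2, the coat protein of droplets outside fat cells, was at 105, 118 and 111 FPKM in DMSO, 104, 108 and 104 in E2, and 112, 127 and 110 in 4OHT, with a difference of -0.07 between E2 and DMSO (95% interval -0.17 to 0.02, blocked). The triglyceride lipase gene Pnpla2 (25.2 to 30.4 FPKM over all samples), the lysosomal lipase gene Lipa (7.06 to 8.48) and the tested row of the hormone-sensitive lipase gene Lipe (1.54 to 2.06) differed by -0.01, 0.10 and 0.09. The other 2 rows of Lipe stayed under the filter, at 0.189 to 0.574. Their means went the other way, 0.397 in DMSO against 0.311 in E2, and 0.474 against 0.431. Levels of one gene spread over 3 rows are uncertain.

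The carnitine palmitoyltransferases control the entry of long chains into mitochondria, with the type 1 forms on the outer membrane and Cpt2 inside. None of the 3 tested passed in either fit. Cpt2, the highest, was at 11.0, 10.7 and 11.0 FPKM in DMSO, 10.4, 10.1 and 11.0 in E2, and 11.3, 11.3 and 11.0 in 4OHT. Cpt1a, the rate-limiting form outside muscle and brain, ran from 7.34 to 13.9 in DMSO, 8.6 to 12.1 in E2 and 7.14 to 10.7 in 4OHT, and its E2 difference was 0.06 (95% interval -0.15 to 0.26, blocked). Cpt1c, the brain form, differed by -0.29 (95% interval -0.53 to -0.05, limma adjusted p = 0.103, blocked), with E2 below DMSO for each replicate number.

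Among the 13 mitochondrial beta-oxidation enzymes, 1 rose in the blocked fit and 0 in the unblocked fit, and none fell in either. Hsd17b10, a hydroxyacyl-CoA dehydrogenase that also acts on steroids and in mitochondrial RNA processing, was at 67.6, 65.5 and 64.6 FPKM in DMSO, 74.9, 71.1 and 70.7 in E2, and 73.3, 73.1 and 67.0 in 4OHT. The E2 samples were above the DMSO samples and overlapped those of 4OHT. The difference from DMSO was 0.13 (SE 0.0314, limma adjusted p = 0.0427 blocked, 0.411 unblocked). The 13 differences ran from -0.08 (Eci1, an enoyl-CoA isomerase) to 0.14 (Acadm, the medium-chain dehydrogenase), and their 95% intervals in the blocked fit all lay between -0.17 and 0.27. The trifunctional protein genes Hadha and Hadhb differed by 0.09 and 0.13 (limma adjusted p = 0.084 and 0.0521, blocked), and the dienoyl-CoA reductase gene Decr1 by 0.12 (limma adjusted p = 0.0575, blocked). The very-long-chain, long-chain and short-chain dehydrogenase genes Acadvl, Acadl and Acads, the hydratase gene Echs1, the dehydrogenase gene Hadh, the thiolase gene Acaa2 and the isomerase gene Eci2 differed by 0.03, -0.02, 0.03, -0.01, 0.03, -0.01 and 0.03.

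The electron transfer flavoprotein, made of the products of Etfa and Etfb, takes electrons from all acyl-CoA dehydrogenases, and the oxidoreductase encoded by Etfdh passes them to ubiquinone. Etfdh was at 24.1, 21.1 and 24.6 FPKM in DMSO, 28.3, 26.4 and 30.9 in E2, and 24.3, 23.2 and 26.3 in 4OHT. The lowest E2 sample was above the highest of the other 6, with a difference of 0.28 from DMSO (SE 0.0326, limma adjusted p = 0.0047 blocked, 0.276 unblocked). Etfb, the highest of the group, was at 67.7, 65.9 and 66.4 in DMSO, 68.9, 63.7 and 65.6 in E2, and 72.2, 70.7 and 67.3 in 4OHT, a difference of -0.01, and Etfa differed by 0.06. The peroxisomal genes Acox3 (an oxidase of branched chains), Ehhadh (the bifunctional enzyme) and Acaa1a (a thiolase) differed by 0.17, 0.11 and 0.14. None of the 3 passed (limma adjusted p = 0.0853, 0.228 and 0.0898, blocked), and all 3 were higher in E2 than in DMSO for each replicate number, where 28.1% of all rows were. With upper-quartile normalization and with equal FPKM totals 2 of the 3 peroxisomal genes were, where 19.8% and 22.1% of all rows were. Acaa1a, the highest of them, was at 17.6, 15.5 and 19.8 in DMSO, 18.7, 18.2 and 21.3 in E2, and 18.8, 17.6 and 19.6 in 4OHT. The E2 samples of Acox3, at 7.34 to 7.95 FPKM, also lay above the other 6, at 5.82 to 7.22, though it did not pass.

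The 4 pyruvate dehydrogenase kinases switch off pyruvate dehydrogenase and so spare glucose while fatty acids are burned, and in the blocked fit 1 of them rose and 1 fell. Pdk4, the form induced in fasting and by PPARs (chr6:5483351-5496309, minus strand), was at 10.0, 11.3 and 9.68 FPKM in DMSO, 6.55, 7.08 and 6.79 in E2, and 9.47, 10.2 and 9.28 in 4OHT. All 3 E2 samples were below the other 6. The mean fell from 10.3 ± 0.863 to 6.81 ± 0.266 (SD, n = 3), a ratio of 0.658, and the difference was -0.54 (SE 0.0672, limma adjusted p = 0.0213) without the block and -0.54 (SE 0.038, limma adjusted p = 0.00123) with it. The unblocked call of Pdk4 was lost with only the 6 samples compared (limma adjusted p = 0.107). Pdk1, known from the response to low oxygen, was at 2.11, 1.12 and 0.98 in DMSO, 2.84, 1.34 and 1.38 in E2, and 2.06, 1.11 and 0.872 in 4OHT. The samples of replicate 1 were the highest 3 whatever the condition, and the difference of 0.24 passed only in the blocked fit (SE 0.0563, limma adjusted p = 0.0409, against 0.772 unblocked). Without E2 replicate 1 the unblocked difference of Pdk1 was 0.00, and without DMSO replicate 1 it was 0.44. Pdk3, the most abundant kinase, was at 14.1, 14.5 and 13.8 in DMSO, 12.4, 11.8 and 13.6 in E2, and 13.3, 14.7 and 14.9 in 4OHT, a difference of -0.16 (limma adjusted p = 0.114, blocked). Pdk2 differed by 0.20 (limma adjusted p = 0.207, blocked).

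Of the nuclear receptors and coactivators, 3 were tested and none passed against DMSO. Rxra, the partner of the PPARs, was at 12.8, 12.4 and 11.6 FPKM in DMSO, 11.2, 11.3 and 10.7 in E2, and 13.9, 13.1 and 11.6 in 4OHT. The E2 samples of Rxra were all below the other 6, with a difference of -0.14 from DMSO (limma adjusted p = 0.0683, blocked). Pparg, the adipogenic receptor, was at 11.6, 9.98 and 11.9 in DMSO, 10.9, 9.05 and 11.2 in E2, and 11.7, 10.7 and 12.5 in 4OHT, a difference of -0.10 (limma adjusted p = 0.0968, blocked). Ppard, the broadly expressed PPAR, differed by -0.06. The coactivator gene Ppargc1b was at 0.537 to 0.728 and was not tested. Ucp2, an uncoupling protein of the inner mitochondrial membrane, was at 216, 0 and 211 FPKM in DMSO, 228, 212 and 235 in E2, and 217, 214 and 0 in 4OHT. It was thus listed at 0 in DMSO replicate 2 and in 4OHT replicate 3, and at 211 to 235 elsewhere. Exact zeros also stood in 245 of the 11339 tested rows, many of them well expressed elsewhere, so these 2 values may be failed estimates and no change of Ucp2 is given.

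**Figure D3:**
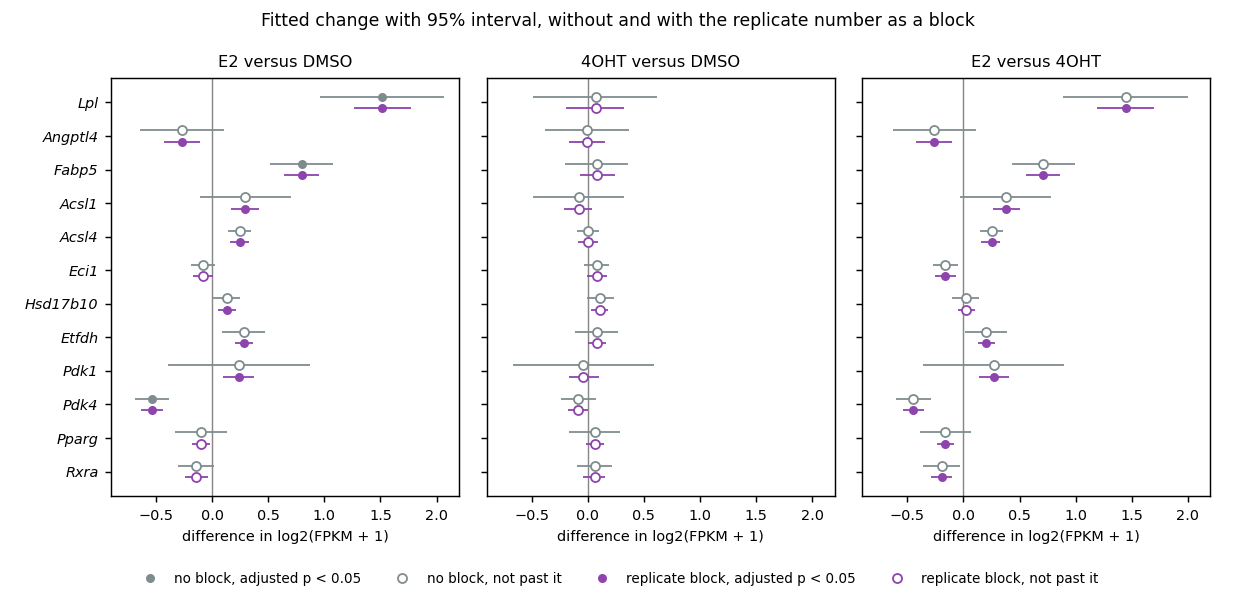
Fitted difference in log2(FPKM + 1) with its 95% interval for the 12 members past the threshold in at least 1 comparison and fit, without (grey) and with (purple) the replicate number as a block. The estimates are equal in the 2 fits and the intervals are narrower with the block, and filled points pass the threshold.

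The comparison of 4OHT with DMSO asks whether the tamoxifen metabolite alone acts on these genes. No member and no other row passed in either fit, so 0% of all rows were called both without and with the block. At an unadjusted p under 0.05, limma gave 313 rows without and 1480 with the block, 0 and 6 of them members. The smallest adjusted p of a member was 0.376, in the blocked fit. By role, 9 of the 13 mitochondrial enzymes and 3 of 3 of the electron transfer group were higher than DMSO for all 3 replicate numbers, and none of either lower. Of all rows, 30.2% were higher and 15.6% lower in this way. With upper-quartile normalization the counts by role were 3 of 13 higher and 4 lower, and 0 of 3, where 9.34% of all rows were higher and 30.6% lower. Hsd17b10 differed by 0.11 (95% interval 0.03 to 0.18, blocked). The fitted differences of Lpl, Fabp5 and Pdk4 were 0.07 (95% interval -0.19 to 0.32, blocked), 0.08 (-0.07 to 0.24) and -0.09 (-0.18 to 0.00). Changes with 4OHT within these intervals were compatible with the values. The median log2 change over the 40 members was 0.05, beside 0.03 over all rows, and turned to -0.01 with upper-quartile normalization and with equal FPKM totals.

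The comparison of E2 with 4OHT uses the same E2 samples, so its values are not independent of those against DMSO, and the compounds were given at different doses. Without the block 0 members passed, where 0.159% of all rows were higher and 0% lower in E2. Pdk4 (limma adjusted p = 0.0659), Lpl (0.0813) and Fabp5 (0.084) were nearest, and 8 members had an unadjusted p under 0.05. In the blocked fit 6 members were higher in E2, where 8.63% of all rows were, and 5 lower, where 7.6% of all rows were. Lpl differed by 1.45 (SE 0.104, limma adjusted p = 0.00216), Fabp5 by 0.71 (SE 0.0622, limma adjusted p = 0.00325) and Pdk4 by -0.45 (SE 0.038, limma adjusted p = 0.00308). Acsl1 (0.38), Pdk1 (0.27), Acsl4 (0.25) and Etfdh (0.20) were the others with higher levels. The lower ones were Angptl4 (-0.26), Rxra (-0.19), Pparg (-0.16) and Eci1 (-0.16), with limma adjusted p between 0.0285 and 0.0471. Angptl4 missed the threshold with upper-quartile normalization (0.054), and Eci1 (0.0811) and Rxra (0.0574) with equal FPKM totals, in the blocked fit. Eci1 was at 25.5, 23.3 and 23.6 FPKM in DMSO, 23.1, 22.8 and 22.3 in E2, and 25.6, 26.1 and 24.9 in 4OHT, so that the E2 samples were the lowest 3 of the 9. Hsd17b10, which passed against DMSO, differed from 4OHT by 0.02.

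**Figure D4:**
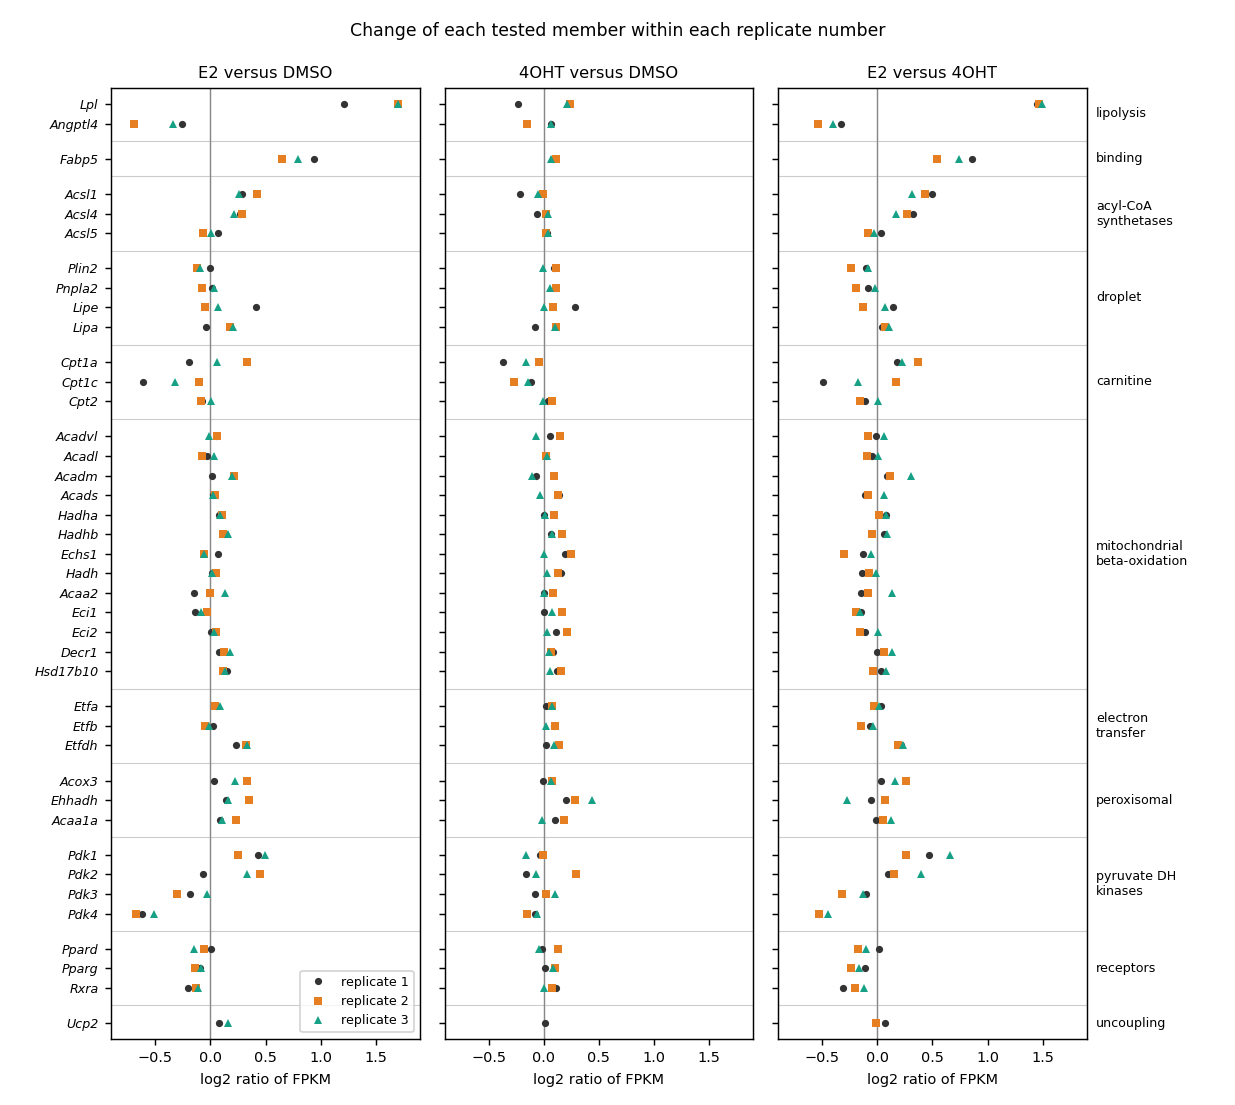
Log2 ratio of FPKM within each replicate number for the 40 tested members, in the 3 comparisons, with pairs that hold an exact 0 left out. The E2 ratios of Lpl, Fabp5 and Pdk4 lie far from 0 for all 3 numbers in the left and right panels. The enzymes of mitochondrial beta-oxidation lie within 0.211 of 0 in the left and 0.244 in the middle panel. In the right panel these enzymes spread farther. There Acadm for replicate 3 is at 32.2 FPKM in E2 and 26.1 in 4OHT, and Echs1 for replicate 2 at 53.0 and 65.4.

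Direction within replicate numbers was counted for all tested members. Against DMSO, E2 was higher for all 3 numbers in 19 members (47.5%), where 28.1% of all rows were, and lower in 8 (20%), where 24.3% were. One of the 19 is Ucp2, through a listed zero. By role, 8 of the 13 mitochondrial enzymes, 3 of 3 peroxisomal enzymes and 2 of 3 of the electron transfer group were higher throughout. With 4OHT, 19 members were higher than DMSO for all 3 numbers (47.5%, where 30.2% of all rows were) and 5 lower (12.5%, where 15.6% were). These 2 comparisons share the DMSO samples, and their counts depended on the scaling. With upper-quartile normalization E2 was higher than DMSO throughout in 13 members (19.8% of all rows) and lower in 11 (35.9%), and 4OHT was higher in 6 (9.34%) and lower in 10 (30.6%). With equal FPKM totals these were 13 (22.1%) and 11 (32%), and 6 (9.22%) and 8 (32.3%). Of the mitochondrial enzymes, 4 of 13 (30.8%) were then higher in E2 than in DMSO under either scaling, and 1 lower (7.69%). Between E2 and 4OHT, 12 members were higher in E2 (30.0%, where 24.3% of all rows were) and 11 lower (27.5%, where 30.9% were). With upper-quartile normalization these were 16 (26.8% of all rows) and 12 (27.8%), and with equal FPKM totals 17 (29.9%) and 10 (24.4%). As deposited, the mitochondrial enzymes were split, with 2 of 13 higher and 3 lower.

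The calls differed in how far they rested on single samples. In the unblocked fit against DMSO, 0 of 40 members passed when any single E2 sample, DMSO replicate 2 or DMSO replicate 3 was left out. Pdk4 still passed in 4 of the 9 fits with 1 sample fewer (without DMSO replicate 1 or any single 4OHT sample), Lpl in 1 (without DMSO replicate 1) and Fabp5 in 0, with adjusted p between 0.0544 and 0.184. In the blocked fit, Lpl, Fabp5, Pdk4 and Etfdh passed in 9 of 9 such fits, Acsl4 in 7 and Acsl1 in 5. Hsd17b10 passed in 2, Pdk1 in 1 and Angptl4 in 0. With a whole replicate number left out, the blocked fit kept Lpl, Fabp5 and Pdk4 in 3 of 3 fits and Etfdh in 1. Against 4OHT in the blocked fit, Lpl, Fabp5, Pdk4 and Acsl1 passed in 9 of 9 fits with 1 sample fewer, Acsl4 in 7 and Etfdh in 6. Rxra then passed in 3, Pdk1 and Eci1 in 2 each, and Angptl4 and Pparg in 1 each. With a whole replicate number left out, Lpl passed against 4OHT in 3 of 3 fits, Fabp5 and Pdk4 in 2 (highest limma adjusted p 0.0586 and 0.0508), and Acsl1, Acsl4, Etfdh and the other members in 0. A permutation of 3 samples against 3 cannot give a two-sided exact p under 0.1.

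Samples of replicate 1 stood apart from the other 6 in all 3 conditions for several members. They were higher than all others in 5 tested members (12.5%, where 10.6% of all rows were) and lower in 2 (5.0%, where 10% of all rows were). The higher ones were Pdk1 (mean 2.34 against 1.13 FPKM), Cpt1a (12.3 against 7.98), Pdk2 (7.0 against 5.08), Acadm (37.7 against 28.8) and Hadh (55.1 against 51.1). The lower ones were Acadl (52.6 against 59.8) and Ppard (6.90 against 8.07). For Cpt1a the ratio of 1.54 between replicate 1 and the others exceeded its ratio of 1.02 between E2 and DMSO. The medium-chain and long-chain dehydrogenase genes, Acadm and Acadl, stood on opposite sides, and such separation of replicate 1 was not particular to the members. The labels do not say what the replicate number stands for.

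**Figure D5:**
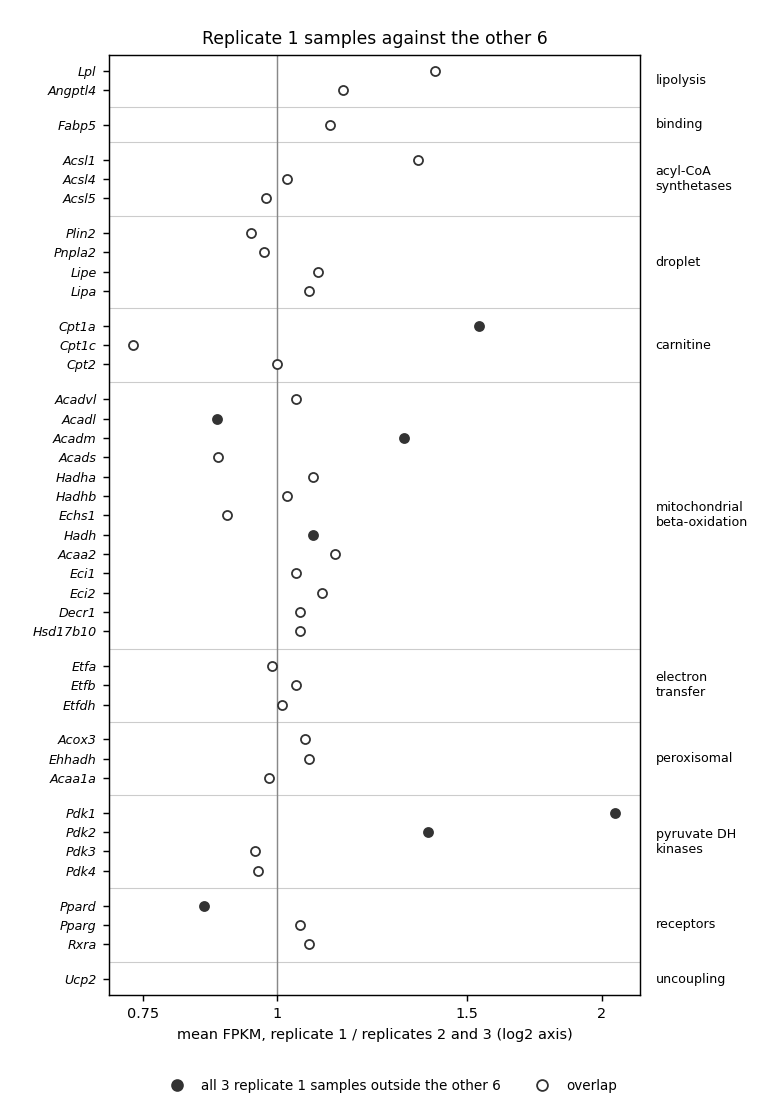
Mean FPKM of the 3 replicate 1 samples divided by the mean of the other 6 (log2 axis) for 39 tested members, Ucp2 being left out because of its zeros, with filled points where all 3 replicate 1 samples lie outside the range of the other 6. Pdk1 stands at 2.06 and Cpt1a at 1.54, and the filled points on the left are Acadl and Ppard.

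Other genes of the pathway were taken from a list of 111 symbols, of which 109 rows were found and 84 tested (Cpt1b and Pprc1 were listed only in rows shared with other genes). Without the block, 0 of the 84 passed in any comparison. In the blocked fit 13 were higher and 1 lower in E2 than in DMSO, where 15.5% and 1.19% of the 84 stand beside 10.4% and 4.63% of all rows. Against 4OHT 8 were higher (9.52%, beside 8.63%) and 3 lower (3.57%, beside 7.6%). The lipoprotein receptor gene Vldlr, which works with lipoprotein lipase in fatty acid uptake, was at 9.53, 6.77 and 8.6 FPKM in DMSO, 12.3, 12.8 and 14.7 in E2, and 7.14, 6.94 and 9.12 in 4OHT. Its difference from DMSO was 0.63 (SE 0.102, limma adjusted p = 0.0138, blocked), with the E2 samples the highest 3. Mgll, monoglyceride lipase, differed by 0.45 from DMSO and by 0.71 from 4OHT, and Acss2, acetyl-CoA synthetase of the cytosol, by 0.41 and 0.38. Lipg, endothelial lipase, differed from DMSO by 0.32. Acsbg1, a further acyl-CoA synthetase, was lower in E2 by -0.32 and -0.38. Slc27a3, of the fatty acid transport proteins, was higher than in 4OHT by 0.24. The 10 tested genes of the pyruvate dehydrogenase complex, its phosphatases and the pyruvate carriers held 0 calls in either comparison with E2. The droplet coat gene Plin3 was listed at 0 in E2 replicate 1 and 4OHT replicate 2, and at 37.4 to 48.3 elsewhere, like Ucp2.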

How the data were processed

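Polyadenylated RNA was sequenced from 9 samples of FVB MOE cells, 3 per condition. Per the labels and the paper's methods, the authors trimmed and aligned the reads to mm10 with TopHat2 2.0.8b, and the submitters' processing notes also name Cuffdiff 2.1.1. The deposited values are FPKM of known genes from Cufflinks with a UCSC annotation. A further scaling between libraries is not given in the sources used here. Counts are not in these files, so tests that need counts and intervals for counting error were not made. The files hold 0 other columns of per-sample values.

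Here, log2(FPKM + 1) of rows that reached 1 FPKM in 3 or more samples was fitted with limma 3.58.1 in R 4.3.3, with a variance trend, 1 coefficient per condition over all 9 samples, and Benjamini-Hochberg adjustment within each comparison. Adding 1 makes the changes of genes near 1 FPKM smaller. Groups and replicate numbers came from the labels. The numbers were taken as pairs because same-numbered samples deviated together from their condition means, with correlations of 0.52 to 0.83 (median 0.73, 9 pairs) over the 11094 tested rows with no exact 0. With the 245 rows that hold a 0 included, they were 0.05 to 0.29 (median 0.14). The least correlation set for pairing was 0.1, so the lowest over all tested rows fell short of it. The script was tested on simulated data with independent noise, no replicate effect and no exact zeros. That test does not show how the block acts where same-numbered samples deviate together. The members and gene lists were chosen with earlier results of these data known. By a rule written beforehand, values in every sample are given for members past the threshold in any comparison and fit, and for the highest member of each role. They are also given for members listed at 0 in some samples and at 1 FPKM or more in others. The rule also names up to 5 related genes past the threshold per comparison, those with the largest change, without asking for their values in every sample. Other genes named with values were chosen after their values were seen. Coordinates are from GENCODE for GRCm38, to which mm10 corresponds, and figures were drawn with matplotlib 3.10.9. Alternatives were a pseudocount of 0.1, no filter, upper-quartile normalization, equal FPKM totals, only the 6 samples compared, the block, exact zeros as missing, no variance trend, an adjusted p under 0.01 and each sample left out. Replicates 2 and 3 alone, the block with samples left out or another scaling, and the directions within replicate numbers under another scaling were added after the data were seen.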

Additional observations from a re-analysis of the deposited data

How the results depend on the processing

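For E2 against DMSO, the 3 members called became 2 with a pseudocount of 0.1, with equal FPKM totals and without a variance trend, 1 (Pdk4) without a filter and with upper-quartile normalization, and 0 with only the 6 samples compared and at an adjusted p under 0.01. With exact zeros as missing they were 3. With the replicate block they were 9, and 10 with zeros as missing as well, Hadhb being added. In the blocked fit they were 10 with upper-quartile normalization and 12 with equal FPKM totals. With 1 sample left out they ranged from 0 to 2, with 1 sample left out in the blocked fit they were 4, 6, 7 or 8, and with 1 replicate number left out 3 or 4. On replicates 2 and 3 alone, unblocked, 1 (Lpl) was called. Over all rows tested, the unblocked fit called 56 higher and 2 lower as deposited. These were 33 and 3 with upper-quartile normalization and 31 and 2 with equal FPKM totals. The blocked fit called 1177 and 525 rows as deposited, and in the same order 914 and 1070, and 1016 and 1025. For E2 against 4OHT, the 0 members became 1 (Pdk4) with equal FPKM totals and with zeros as missing, 11 with the replicate block, 12 with zeros as missing and the block (Plin2 being added), 11 with upper-quartile normalization and 10 with equal FPKM totals in the blocked fit, 0 to 1 with 1 sample left out (Lpl, without DMSO replicate 1), 4, 6, 7, 8 or 10 with 1 sample and 2 or 3 with 1 replicate number left out in the blocked fit, and 1 (Lpl) on replicates 2 and 3 alone. Over all rows tested, the unblocked fit called 18 higher and 0 lower in E2 than in 4OHT as deposited. These were 25 and 1 with upper-quartile normalization and 18 and 2 with equal FPKM totals. The blocked fit called 978 and 862 rows as deposited, and in the same order 1084 and 787, and 1229 and 798. For 4OHT against DMSO, 0 members were called under every alternative run. No fitted change of a member past the threshold turned direction under any alternative run, though that of Pdk1 against DMSO was 0.00 without E2 replicate 1 in the unblocked fit, and the cause of the changes in the counts was not tested. Where leaving out a sample left 2 in a condition, these were assumed to vary like the other conditions. FPKM without counts limits what can be said of genes near or under 1 FPKM, such as Fabp4, Ppara and Angptl4.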
